A study of Mus musculus with 7 samples.

Results

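The transcriptome described here is that of resting wild-type (WT) alveolar macrophages of the mouse, measured by RNA sequencing in 3 libraries, WT replicates 1, 2 and 3, out of 7 libraries in the series. They were chosen by their label alone, with no use of measured values, and the other 4 libraries, from lines in which the ubiquitin ligase genes Siah1a and Siah2 were deleted, were not analysed here. The cells came from mouse lung and were sorted on 3 surface proteins, CD11c, F4/80 and SiglecF. The labels state no treatment, age, strain or sex. They do not say whether the WT animals carried floxed alleles or a Cre transgene, nor whether each library came from a separate animal, so the spread given here is the spread between 3 libraries and may be partly technical. With a single group there is no contrast between conditions, and no test was made. What follows is what these cells expressed, by abundance and by function, and how far the libraries differed.

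Levels are in TPM, transcripts of a gene per 1000000 of the library, which the authors computed with a correction for gene length. A level of 1000 TPM therefore means that 1 transcript in every 1000 came from that gene. Sequencing depth cannot be read from TPM, and so no counting error can be given for any value. Where 3 values are listed, they are those of replicates 1, 2 and 3 in that order, and the rank of a gene is its place among the 47643 listed genes by mean TPM.

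Alveolar macrophages are the resident phagocytes of the airspaces. They arise from fetal precursors, mature under granulocyte-macrophage colony-stimulating factor (GM-CSF) and transforming growth factor beta through the nuclear receptor PPAR gamma, and maintain themselves locally. They take up and break down spent surfactant, a lipid-rich film, and so carry much machinery for lipid and lysosomal turnover. They also clear inhaled particles and microbes while restraining inflammation, which makes their profile differ from that of the interstitial macrophages of the lung wall and of macrophages newly made from monocytes.

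The libraries held similar numbers of genes. In replicates 1, 2 and 3, 11382, 11348 and 11518 genes reached 1 TPM, and 10226 did so in all 3, which is 21.5% of the 47643 listed. Of the 21971 protein-coding genes, 9677 (44%) did so, and 8836 (40.2%) were listed at 0 in all 3. These shares are the background for the counts of listed genes below, whose lists were chosen with earlier results of these data known. Replicate 3 stood apart in some respects that touch results below. Ribosomal RNA features were high in it, with the nuclear ribosomal RNA features holding 0.0745%, 0.123% and 1.54% of TPM in the 3 libraries, and GC-rich genes read lower. No pair of libraries looked like a copy of the other, since at most 27 of the 8718 genes with a mean of at least 5 TPM had identical values in any pair. Across those genes Pearson's r of log2(TPM + 1) was 0.944 for replicates 1 and 2, 0.935 for 1 and 3 and 0.932 for 2 and 3, and genes are not independent replicates.

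Expression was concentrated in few genes. The 100 most abundant genes of each library held 39.5% ± 1.66 (SD, n = 3) of its TPM, the 10 most abundant held 14.7% ± 0.834 (SD, n = 3), and 226, 200 and 185 genes made up 50% of TPM in the 3 libraries. Altogether 146 genes averaged at least 1000 TPM and 8 averaged at least 10000 TPM. The libraries largely shared their leading genes, with 85 genes in the top 100 of all 3 and 113 in the top 100 of any.

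**Figure D1:**
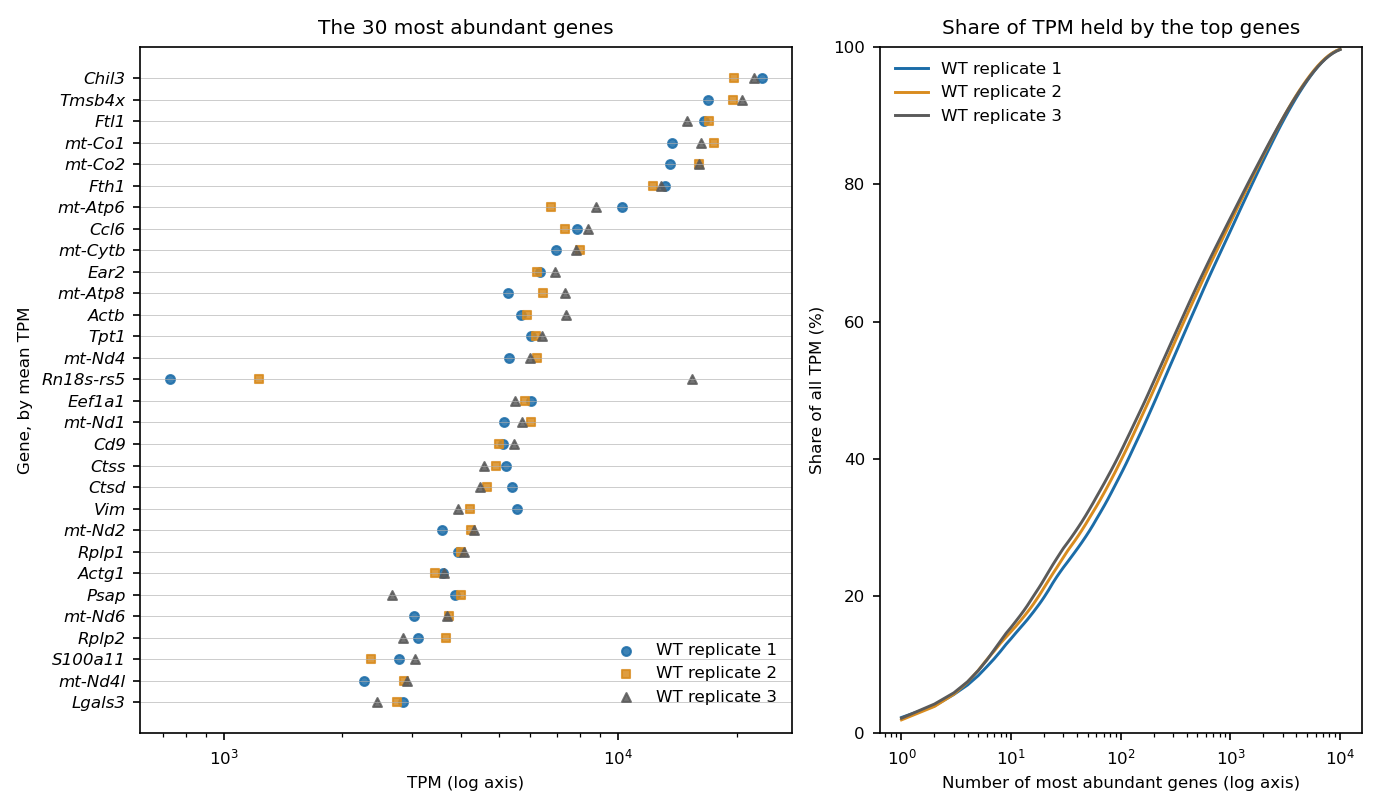
The 30 most abundant genes after leaving out pseudogenes and predicted models (left, TPM on a log axis, 1 symbol per WT library) and the share of all TPM held by the most abundant genes of each library (right, percent against number of genes on a log axis). The 3 libraries lie close together for most genes, while Rn18s-rs5 reads 15441 TPM in replicate 3 against 730.01 and 1226 TPM in the others.

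The most abundant transcript was that of Chil3, which encodes Ym1, a chitinase-like secreted protein, at 23195, 19695 and 22163 TPM. Its 3 values spanned 0.24 on the log2(TPM + 1) scale, and it alone made up 2.17% ± 0.180 (SD, n = 3) of TPM. Tmsb4x, encoding the actin-sequestering thymosin beta 4, followed at 16944, 19590.2 and 20605 TPM. The ferritin light and heavy chains, which store iron, stood at 16567, 17033 and 14936 TPM for Ftl1 and 13142, 12258 and 12884 TPM for Fth1. Ccl6, a CC chemokine made at rest by these cells, ranked 11 at 7891, 7337 and 8407 TPM. The ribonuclease gene Ear2, of the eosinophil-associated family, ranked 13 at 6359, 6224 and 6929 TPM.

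Among the other leading genes of nuclear origin were those for the cytoskeleton, the translation machinery and the lysosome. Actb and Actg1, the cytoplasmic actins, averaged 6318 ± 925 and 3550.4 ± 93.1 TPM (SD, n = 3), and the intermediate filament gene Vim averaged 4557 ± 859 TPM (SD, n = 3). The tumour protein gene Tpt1 stood at 6026, 6196 and 6418 TPM, and the elongation factor gene Eef1a1 at 6009, 5815 and 5471 TPM. The tetraspanin Cd9 (rank 23), the cathepsins Ctss (rank 24) and Ctsd (rank 25) and the saposin precursor Psap (rank 30) averaged 5191 ± 239.6, 4903 ± 311, 4837 ± 493 and 3509 ± 730.4 TPM (SD, n = 3 each). Psap was lower in replicate 3, at 3853, 4003 and 2669.7 TPM. The stalk proteins of the ribosome Rplp1 and Rplp2 averaged 4001 ± 68.8 and 3206 ± 418 TPM, the calcium-binding S100a11 2733 ± 350 TPM and the galectin Lgals3 2682 ± 206 TPM (SD, n = 3 each).

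Housekeeping systems took shares of TPM from 0.534% to 9.73%, and these were not equally even between libraries. The 80 cytosolic ribosomal protein genes held 9.73% ± 0.264 (SD, n = 3) of TPM, and the 37 mitochondrially encoded genes held 8.56% ± 0.902 (SD, n = 3). The 77 nuclear-encoded subunits of oxidative phosphorylation, the partners of the mitochondrial genes in the respiratory complexes, held 1.94% ± 0.0252 (SD, n = 3). The 25 V-ATPase subunits, which acidify lysosomes, held 0.598% ± 0.00469, and the 39 proteasome subunits 0.534% ± 0.0448 (SD, n = 3 each). Annotated pseudogenes held 7.90% ± 0.270 (SD, n = 3), of which 5 copies of mitochondrial genes, described further on, held 3.18% ± 0.313 (SD, n = 3).

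The sort was visible in the RNA. Itgax, which encodes CD11c (chromosome 7, 128129547 to 128150657, mm10), stood at 387, 327 and 373 TPM. Siglecf (chromosome 7, 43351341 to 43359531), a sialic acid-binding inhibitory lectin, stood at 226, 211 and 256 TPM. Adgre1, which encodes F4/80 (chromosome 17, 57358691 to 57483527), stood at 135, 103 and 146 TPM. In all 3 the lowest value was that of replicate 2, and none spanned 2-fold between libraries. Since the cells were gated on these proteins, their presence is a check of the sort and not a finding.

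The identity genes of alveolar macrophages, a list picked with earlier results of these data in view that includes the sorting markers Itgax and Siglecf, describe the label and are no independent check of it. Of 30 identity genes, all 30 reached 1 TPM in every library, against 44% of all protein-coding genes, with a median rank of 292.5 and a summed share of 5.61% of TPM. Besides Chil3, Ccl6, Ear2 and Cd9, the list was led by Ear1, a second ribonuclease, at 2400.5, 2574 and 2689 TPM, and by Lpl, lipoprotein lipase, at 1318, 1753 and 1299 TPM. Car4, a membrane-bound carbonic anhydrase (chromosome 11, 84957786 to 84966044), stood at 737, 1123 and 897 TPM and was highest in replicate 2. Marco, a scavenger receptor for particles and bacteria (chromosome 1, 120474538 to 120505024), stood at 479, 594 and 223 TPM. Marco was the 1 identity gene of 30 whose libraries spanned more than 2-fold (log2 range 1.41), and replicate 3 was the low one. The share was 10.8% of all 8718 genes with a mean of at least 5 TPM, but spread depended on abundance. Of the 30, 26 averaged at least 100 TPM. Among protein-coding genes, 2.16% spanned more than 2-fold at 100 to 1000 TPM and 0.826% at 1000 TPM or more. The transcripts of Ear1 and Ear2 are 96.8% identical over their aligned bases, so how reads were split between them is uncertain, while their sum was even at 8759, 8798 and 9619 TPM.

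Of 18 genes of interstitial and monocyte-derived macrophages, 10 averaged under 1 TPM. In every library 7 reached 1 TPM, near the share of 44% of all protein-coding genes. Listed at 0 in all 3 were 3 (Lyve1, Folr2 and Tmem119), against 40.2% of all protein-coding genes. The median of their mean levels was 0.383 TPM, against 546 TPM for the identity list. Within it, 4 genes were abundant: the selenium transport protein gene Selenop (listed under its older symbol Sepp1) at 681, 595 and 754 TPM, the endotoxin co-receptor Cd14 at 574, 638 and 517 TPM, the receptor gene Csf1r at 86.8, 83.7 and 74.1 TPM and the lipid carrier Apoe at 52.2, 49.99 and 28.9 TPM. The complement genes C1qa, C1qb and C1qc, which mark interstitial macrophages and were picked with their values in view, did not exceed 0.93 TPM in any library. Pf4, a chemokine of platelets and some macrophages, stood at 3.25, 9.4 and 5.14 TPM and spanned more than 2-fold. In bulk RNA, fewer cells of a type and less RNA per cell cannot be told apart.

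**Figure D2:**
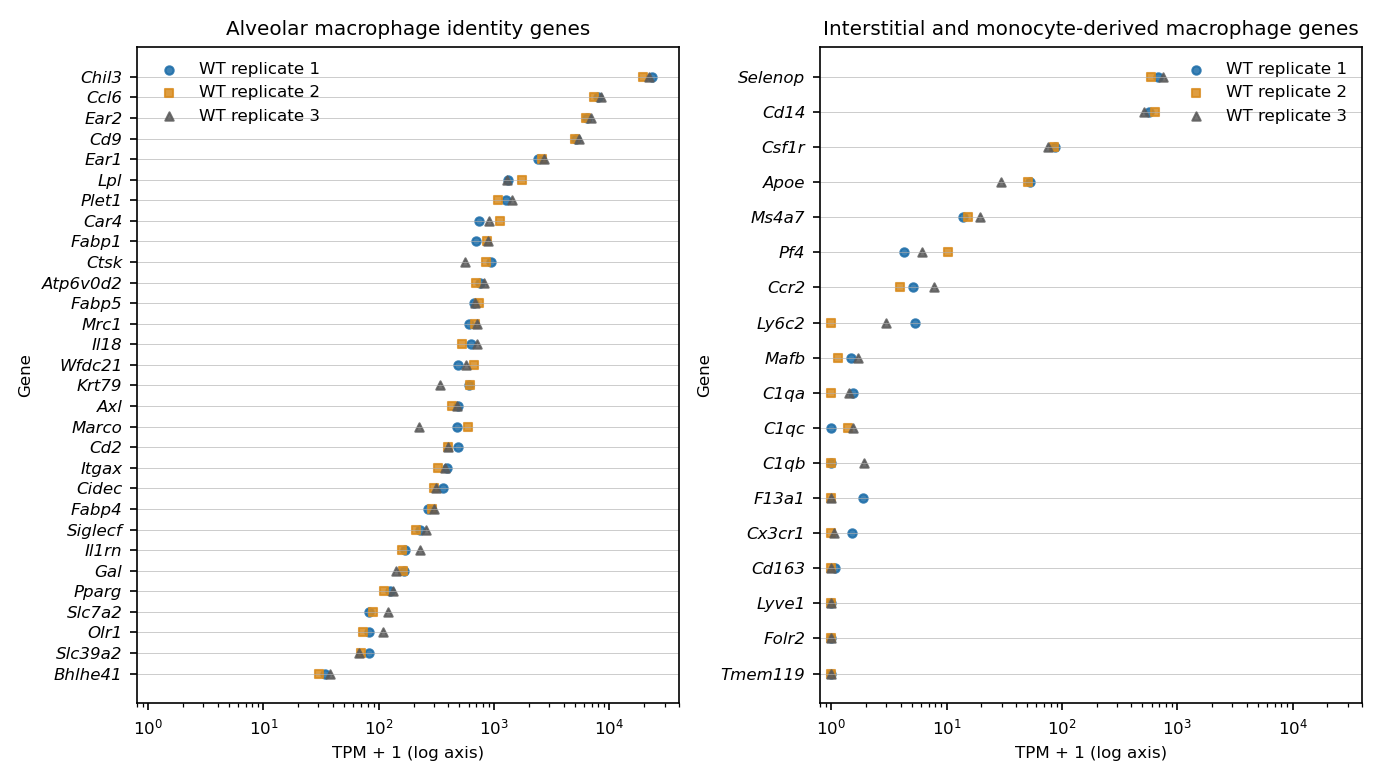
Levels of alveolar macrophage identity genes (left) and of interstitial and monocyte-derived macrophage genes (right) in the 3 WT libraries, as TPM + 1 on a log axis with 1 symbol per library. All 30 identity genes lie above 10 TPM in every library, and 11 of the 18 genes on the right do not reach 1 TPM in every library.

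Promoters of 8 identity genes, picked with their values in view, are shown because these cells depend on PU.1, the product of Spi1, and PU.1 binds sites with an ETS core. The 60 bases before the RefSeq start of each gene on GRCm38.p6 are printed 5′ to 3′ on the gene's strand, with every GGAAGT on either strand in capitals (ACTTCC is the same motif on the other strand).
Chil3: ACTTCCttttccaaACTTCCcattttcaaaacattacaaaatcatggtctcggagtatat
Ccl6: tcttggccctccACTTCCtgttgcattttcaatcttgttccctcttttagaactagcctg
Siglecf: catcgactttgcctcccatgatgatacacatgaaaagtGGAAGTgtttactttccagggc
Itgax: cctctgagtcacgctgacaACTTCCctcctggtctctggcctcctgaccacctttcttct
Marco: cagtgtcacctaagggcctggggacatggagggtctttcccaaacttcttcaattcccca
Car4: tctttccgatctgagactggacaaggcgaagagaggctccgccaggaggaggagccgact
Ear1: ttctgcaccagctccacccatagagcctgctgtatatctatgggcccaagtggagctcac
Ear2: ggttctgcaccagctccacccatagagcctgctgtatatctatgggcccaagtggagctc
The windows of Chil3, Ccl6, Siglecf and Itgax held the motif, with 2 matches in Chil3. Those of Marco, Car4, Ear1 and Ear2 did not, nor did their full windows of 250 bases before to 50 after the start. Those of Ear1 and Ear2 were the same over 58 aligned bases with no mismatch. Of the 23 identity genes matched in RefSeq, 4 held the motif in these 60 bases, and those 4 are among the 8 shown. In the same 60 bases, 7.12% of all 27025 RefSeq promoters held it on either strand. The share was 11.4% of 7593 for protein-coding genes at 1 TPM or more in every library and 4.07% of 6093 for those listed at 0 in all 3. Over the full windows the motif was in 6 of the 23 identity genes, in 24.1% of all promoters, in 31.3% of those of expressed genes and in 19.7% of those listed at 0. A match is a description of letters, not of binding, and promoters of expressed and silent genes also differ in base composition, whose part was not tested.

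Most regulators of this program were expressed. Of 30 macrophage transcription factors, 24 reached 1 TPM in every library, against 44% of all protein-coding genes, with a median of 40.3 TPM. Cebpb and Cebpa, of the C/EBP family, stood at 661, 616 and 532 TPM and at 215, 194 and 176 TPM, and Spi1 at 363, 322 and 315 TPM. Bhlhe40, a repressor that supports alveolar macrophage renewal, stood at 181, 187 and 225 TPM, Nfe2l2, the antioxidant regulator NRF2, at 152, 153 and 175 TPM and the zinc finger factor Klf4 at 123, 167 and 162 TPM. Pparg, the lineage receptor, stood at 125, 111 and 132 TPM and Bhlhe41, the partner of Bhlhe40, at 33.4, 29.2 and 37.1 TPM, both named after their values were seen. Gata6, the factor of peritoneal macrophages, was listed at 0 in every library. Zeb2, a repressor that keeps tissue macrophage identity, stood at 18.7, 22 and 45.7 TPM and was the 1 factor whose libraries spanned more than 2-fold.

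Most of the listed growth factor and cytokine receptor genes were expressed. Of 29 receptor genes, 25 reached 1 TPM in every library, against 44% of all protein-coding genes. None of the 22 with a mean of at least 5 TPM spanned more than 2-fold, against 8.3% of such protein-coding genes. That share was lower at higher levels, such as 4.45% at 50 to 100 TPM, and the list median was 55.1 TPM. The GM-CSF receptor chains led, with Csf2ra at 245, 248 and 163 TPM and Csf2rb at 198, 181 and 206 TPM. Csf2ra was lower in replicate 3, and Csf2rb has a near copy, Csf2rb2, that can share its reads. The tumour necrosis factor receptor Tnfrsf1a stood at 149, 153 and 131 TPM, the interferon gamma receptor Ifngr1 at 136, 132 and 124 TPM, the chemokine receptor Ccr1 at 128, 107 and 134 TPM and the transforming growth factor beta receptor Tgfbr2 at 112, 94.7 and 123 TPM. The interleukin 33 receptor Il1rl1 was listed at 0 in all 3.

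Lipid handling was broadly expressed. All 33 of 33 listed genes reached 1 TPM in every library, against 44% of all protein-coding genes, with a median of 110.5 TPM. Plin2, which coats lipid droplets, led at 2786, 2334 and 2181 TPM and Lpl followed. The fatty acid-binding proteins Fabp1 and Fabp5 stood at 693, 858 and 888 TPM and at 667, 733 and 683 TPM, the cholesterol exporter Abcg1 at 665, 611 and 679.7 TPM and the droplet protein Cidec at 358, 303 and 315 TPM. Scd1, a fatty acid desaturase, was the 1 member that spanned more than 2-fold, at 10.9, 3.81 and 4.64 TPM, with replicate 1 highest.

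All 32 genes of the lysosome list reached 1 TPM in every library, against 44% of all protein-coding genes. Their median was 318 TPM and their sums were 27224, 25391 and 22794 TPM. The list was led by Ctss, Ctsd and Psap, followed by the membrane protein Laptm5 at 1749, 1704 and 1838 TPM, the cathepsin Ctsz at 1221, 1122 and 797 TPM and progranulin (Grn) at 912, 917 and 661 TPM. Replicate 1 held the highest value for 19 of 32 members, and how often it was highest over all genes was not computed. Cd63, a tetraspanin of late endosomes, stood at 509, 533 and 263 TPM, and Smpd1, acid sphingomyelinase, at 12.6, 4.24 and 8.48 TPM, and both spanned more than 2-fold.

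Uptake receptors ranged from abundant to listed at 0. Of 31 scavenger and phagocytic receptor genes, 24 reached 1 TPM in every library, against 44% of all protein-coding genes. The signalling adaptors Tyrobp (DAP12) and Fcer1g (the Fc receptor gamma chain) stood at 2316, 2261 and 2506 TPM and at 1377, 1404 and 1607 TPM. Clec7a, which encodes the beta-glucan receptor dectin-1, stood at 1256, 1133 and 1286 TPM, the integrin chain Itgb2 at 744, 645 and 629.97 TPM, the mannose receptor Mrc1 at 603, 683 and 710.4 TPM and the dectin-2 gene Clec4n at 512, 563 and 564 TPM. Of the receptor tyrosine kinases for apoptotic cells, Axl stood at 482, 429 and 472 TPM, Mertk at 162, 168 and 186 TPM, and Tyro3 was listed at 0 in all 3, as was Timd4, a phosphatidylserine receptor. Msr1, the class A scavenger receptor, stood at 7.35, 13.9 and 5.67 TPM and spanned more than 2-fold, with replicate 2 highest. Axl and Mertk were named after their values were seen.

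In innate sensing, 27 of 29 genes reached 1 TPM in every library, against 44% of all protein-coding genes, at a median of 26 TPM. Beside Clec7a and Cd14, Tlr2, which senses bacterial lipoproteins, stood at 361, 413 and 443 TPM, the adaptor Myd88 at 109.8, 115 and 105 TPM, and the inflammasome genes Pycard and Casp1 at 59.3, 87.5 and 62.6 TPM and at 72.2, 52 and 67.8 TPM. Tlr8, a sensor of RNA in endosomes, stood at 33.1, 17.6 and 43.5 TPM and spanned more than 2-fold, with replicate 2 lowest.

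Antimicrobial secretion was led by Chil3, Ear2 and Ear1, and the list of 22 summed to 37158, 33450 and 36412 TPM. Mpeg1, the pore-forming perforin-2, stood at 1333, 1225 and 1216 TPM, Cyba, a membrane subunit of the phagocyte NADPH oxidase, at 1123, 1030.3 and 884 TPM and Slpi, a secreted protease inhibitor, at 999, 814 and 756 TPM. The cathelicidin gene Camp was listed at 0 in all 3. Lyz2, lysozyme M (chromosome 10, 117277331 to 117282321), stood at 77.6, 72.6 and 86.2 TPM, at rank 1778. The gene is known for high expression in macrophages, and it is the locus that drives Cre in a deleted line of the series. Whether the WT animals carried that allele is not stated in the labels, and its part in this level was not tested. Chil4, a near copy of Chil3 with transcripts 94.4% identical over aligned bases, stood at 1.1, 2.53 and 1.58 TPM, and was picked with its values in view.

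Cytokine genes at rest had a median of 5.07 TPM. Of 37 cytokine and chemokine genes, 25 reached 1 TPM in every library, against 44% of all protein-coding genes. Ccl6 alone gave most of the summed level. Il18, made as an inactive precursor, stood at 628, 527 and 716 TPM, Tgfb1 at 305, 321 and 305 TPM, the interleukin 1 antagonist Il1rn at 168, 159 and 225 TPM, oncostatin M (Osm) at 168, 169.8 and 169 TPM and Mif at 149.7, 113 and 140.02 TPM. Listed at 0 in all 3 were 3 of the 37, against 40.2% of all protein-coding genes. These were the chemokine Ccl24, interferon beta (Ifnb1) and interleukin 12 p40 (Il12b). Among the less abundant members, the neutrophil attractant Cxcl1 stood at 3.72, 16.1 and 0.6 TPM and Cxcl16 at 4.12, 10.1 and 5.97 TPM, and both were highest in replicate 2 and spanned more than 2-fold.

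All 17 of 17 listed inhibitory receptor genes reached 1 TPM in every library, against 44% of all protein-coding genes. None spanned more than 2-fold, against 8.3% of protein-coding genes with a mean of at least 5 TPM. That share was 2.16% at 100 to 1000 TPM, and 9 of the 17 averaged at least 100 TPM. Sirpa, the CD47 receptor, stood at 735, 774 and 839 TPM, Lilrb4a at 276, 269 and 331 TPM, the inhibitory Fc receptor Fcgr2b at 255, 223 and 250.5 TPM, the phosphatase Ptpn6 (SHP-1), which such receptors recruit, at 255, 234 and 215 TPM and Pilra at 205, 166 and 229 TPM. The interferon-stimulated genes had a lower median, 3.07 TPM. Of 28, 17 reached 1 TPM in every library, against 44% of all protein-coding genes. Ly6e led them at 369, 323 and 387 TPM, followed by Bst2 (tetherin) at 77, 106 and 48 TPM, and Mx1 and Ifi44 were listed at 0 in all 3. Isg15, a ubiquitin-like modifier, stood at 14, 3.6 and 8.3 TPM and Xaf1 at 4.37, 3.85 and 11 TPM. Bst2, Isg15 and Xaf1 spanned more than 2-fold, each with a different library highest.

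Class I antigen presentation genes had a median of 202 TPM and class II genes one of 27.1 TPM. The summed levels of the lists were closer, at 7384, 6420 and 5976 TPM for class I and 6438, 5659 and 5445 TPM for class II, where the invariant chain protease Ctss alone held 5208, 4914 and 4586 TPM. All 13 class I genes reached 1 TPM in every library, against 44% of all protein-coding genes. They were led by beta 2 microglobulin (B2m) at 2153, 1924 and 2426 TPM. The heavy chains H2-D1 and H2-K1 stood at 1769, 1572 and 992 TPM and at 902, 858 and 611 TPM. H2-D1 and H2-K1 were lowest in replicate 3, and their reads can be shared with other class I genes. The peptide-loading chaperone Calr stood at 959.8, 668 and 569.99 TPM. Of the 14 class II genes, 11 reached 1 TPM in every library, against the same 44%. The peptide exchange chain H2-DMa stood at 399.8, 287 and 354 TPM, the invariant chain Cd74 at 361, 165 and 205 TPM, and the chains H2-Aa and H2-Ab1 at 120.4, 47.8 and 58.3 TPM and at 109, 41.6 and 34.1 TPM. Cd74, H2-Aa and H2-Ab1 each spanned more than 2-fold with replicate 1 highest, and 3 of 10 members with a mean of at least 5 TPM did so. The costimulatory receptor gene Cd40 was listed at 0 in all 3. Beside these, the sum of 13 dendritic cell markers was 130.1, 131 and 121 TPM. Most of it was Cd24a, also made by other cells, at 104, 92.5 and 107 TPM, so the sum says little about the rest. The sum of 9 B and plasma cell markers was 8.35, 6.96 and 20.4 TPM, lowest in replicate 2.

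Iron handling was dominated by ferritin, since Ftl1 and Fth1 made up most of the 31188, 30619 and 29283 TPM summed over 20 genes. The ferritin-autophagy receptor Ncoa4 stood at 466, 449 and 519.8 TPM, the iron chaperones Pcbp2 and Pcbp1 at 203, 204 and 234 TPM and at 189, 155 and 177 TPM and the heme oxygenase Hmox1 at 177, 143 and 118 TPM. In antioxidant defence 26 of 27 genes reached 1 TPM in every library, against 44% of all protein-coding genes. The glutathione peroxidases Gpx1 and Gpx4 stood at 2176, 2082 and 2046 TPM and at 607, 546 and 500.01 TPM, the peroxiredoxin Prdx1 at 1694, 1625 and 1791 TPM, thioredoxin (Txn1) at 826, 876 and 876 TPM and the glutathione transferase Gstm1 at 432, 515 and 482 TPM. Prdx5, a mitochondrial and peroxisomal peroxiredoxin, stood at 743, 633 and 343 TPM and Keap1, the adaptor that degrades NRF2, at 18.5, 22 and 9.84 TPM. Both spanned more than 2-fold, with replicate 3 lowest.

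In glycolysis, 18 of 21 genes reached 1 TPM in every library, against 44% of all protein-coding genes. Aldoa stood at 1279, 1134 and 1032 TPM, Gapdh at 650.2, 657 and 648 TPM, Ldha at 670.1, 628 and 521 TPM, Pkm at 533, 490.5 and 298 TPM, Gpi1 at 383, 364 and 334 TPM and Eno1 at 330.4, 325 and 244 TPM. The summed level was lowest in replicate 3, at 4606, 4288 and 3660.01 TPM, and Gapdh was even across all 3.

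The cell cycle list showed both arrest and division genes. Of 37 genes, 35 reached 1 TPM in every library, against 44% of all protein-coding genes, at a median of 21.9 TPM. Cdkn1a, which encodes the inhibitor p21, led at 411, 417 and 375 TPM, followed by the replication clamp Pcna at 256, 222 and 250.2 TPM, the tubulin regulator Stmn1 at 189, 179 and 144 TPM, the D-type cyclin Ccnd2 at 89.7, 93.4 and 108 TPM and Cdk4 at 74.1, 115 and 71.2 TPM. Mki67, the proliferation marker, stood at 11.3, 11.4 and 15 TPM and Top2a, topoisomerase II alpha, at 45.2, 43.3 and 42.1 TPM, both named after their values were seen. Tyms, thymidylate synthase, stood at 30.7, 20.9 and 11.1 TPM and was the 1 member that spanned more than 2-fold.

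Immediate-early and stress genes, which can be induced while tissue is dissociated and sorted, were present in every library. Of 30 genes, 29 reached 1 TPM in all 3, against 44% of all protein-coding genes, and the sums were 5393, 4801 and 4712 TPM. The chaperone Hspa8 stood at 2085, 1434 and 1588 TPM, Fos at 634, 545 and 696 TPM, Junb at 392, 472 and 209.5 TPM, the mRNA-decay factor Zfp36 at 333, 282 and 370.4 TPM, the phosphatase Dusp1 at 274, 236 and 264 TPM and the NF-kappaB inhibitor Nfkbia at 199, 294 and 179 TPM. Egr3 was listed at 0 in all 3. Junb, Hsph1, Nr4a2 and Nfkbiz spanned more than 2-fold: the chaperone Hsph1 stood at 58.7, 32.9 and 19.7 TPM with replicate 1 highest, the nuclear receptor Nr4a2 at 6.71, 18.6 and 13.9 TPM and Nfkbiz, an inducible NF-kappaB cofactor, at 2.8, 9.15 and 4.25 TPM, both with replicate 2 highest.

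Some genes better known from epithelium were expressed. Of 14 such genes, 9 reached 1 TPM in every library, against 44% of all protein-coding genes. Plet1 stood at 1268, 1073 and 1423 TPM, the keratins Krt19 and Krt79 at 983, 699.7 and 608 TPM and at 606, 619 and 342 TPM, the junction protein Perp at 162, 144 and 186 TPM, the neuropeptide Gal at 164, 161 and 141 TPM and Epcam at 46.9, 28.4 and 32.3 TPM. Krt7 and Tjp1, both common in lung epithelium, were listed at 0 in all 3. Beside these values, the sum of 10 alveolar type 2 cell markers was 166, 146 and 139 TPM. Most of it was Lyz1, also on the antimicrobial list, at 76.9, 57.4 and 43.2 TPM, and Napsa at 43.56, 59.15 and 55.05 TPM. The sum therefore says little about the other type 2 markers. Surfactant protein C (Sftpc), the defining type 2 marker, stood at 23.8, 12.8 and 17.8 TPM within the sum.

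Both ligase genes that the other lines lack were expressed at a low level. Siah1a (chromosome 8, 86724007 to 86745934) stood at 16.6, 6.72 and 13.3 TPM and Siah2 (chromosome 3, 58674938 to 58692400) at 13.6, 12.7 and 17.3 TPM. The values of Siah1a spanned more than 2-fold, with replicate 2 lowest, and those of Siah2 did not. The paralogue Siah1b stood at 1.77, 1.28 and 0.9 TPM and Siah3 was listed at 0 in all 3.

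**Figure D3:**
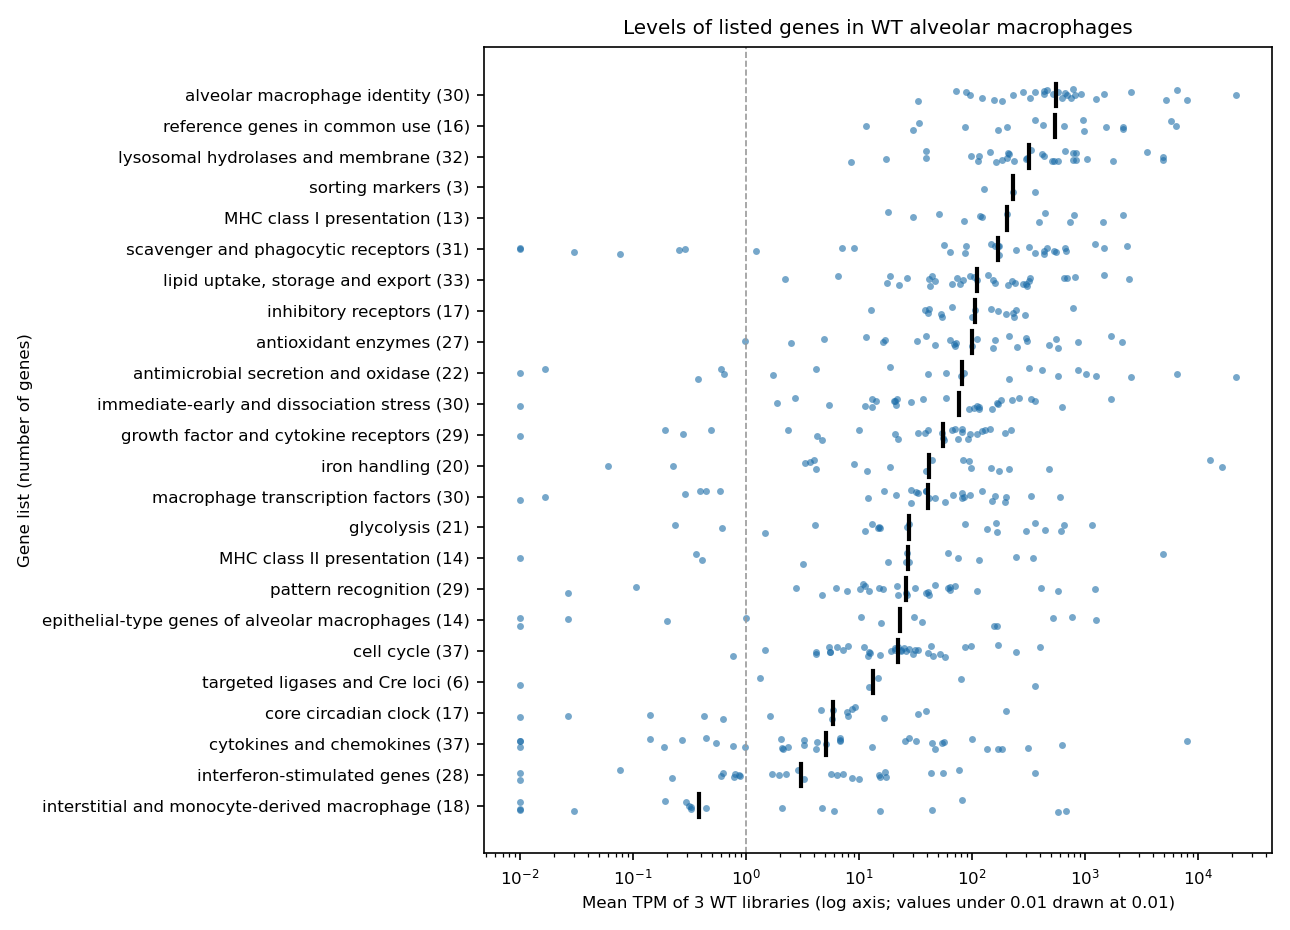
Mean TPM of each gene (points) in 24 gene lists, on a log axis, with the list median as a black bar and 1 TPM as a dashed line. Lists are ordered by median, from alveolar macrophage identity at 546 TPM to interstitial and monocyte-derived macrophage genes at 0.383 TPM.

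Genes commonly used as references were not alike in steadiness. All 16 on the list reached 1 TPM in every library, against 44% of all protein-coding genes. None spanned more than 2-fold, against 2.16% of protein-coding genes at 100 to 1000 TPM, and 12 of the 16 averaged at least 100 TPM. Ppia, a cyclophilin, stood at 2078, 2209 and 2234 TPM, Rplp0, a ribosomal protein, at 1603, 1533 and 1427 TPM and Gapdh as given above, with a log2 range of 0.02. Actb stood at 5680.1, 5895 and 7379 TPM, with replicate 3 highest (log2 range 0.38). The 15 steadiest protein-coding genes with a mean of at least 100 TPM included, besides Gapdh, the proteasome subunit Psma2 at 280.4, 279.7 and 281 TPM and the lectin Clec4a3 at 228, 228 and 227 TPM. Osm, the hydrolase Abhd12, the ribosomal scaffold Gnb2l1 (Rack1) and Rpl26 were also among them, as were Hnrnpa3, Magoh, Tomm5, Mpp1, Brd2, Atp6v1b2 and Trem1. Abhd12 stood at 499.7, 503 and 505 TPM and Gnb2l1 at 1490.4, 1479.8 and 1473 TPM. They were chosen for their small spread, so their steadiness is a description.

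The spread between libraries was small for most genes and depended on abundance. Among the 8718 genes with a mean of at least 5 TPM the median SD of log2(TPM + 1) was 0.23, and 939 (10.8%) spanned more than 2-fold from lowest to highest library. Among the 8228 protein-coding ones the median was 0.22 and 683 (8.3%) spanned more than 2-fold. That share was 16.2% of 1595 genes at 5 to 10 TPM, 10.6% of 1920 at 10 to 20 TPM, 6.39% of 2221 at 20 to 50 TPM and 4.45% of 1169 at 50 to 100 TPM. It was 2.16% of 1202 at 100 to 1000 TPM and 0.826% of 121 genes at 1000 TPM or more. By list, 3 of 10 class II genes, 3 of 13 interferon-stimulated genes and 4 of 27 immediate-early and stress genes did so. None of the 22 receptor genes, 17 inhibitory receptors, 17 glycolysis genes and 13 class I genes with a mean of at least 5 TPM did.

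Replicate 3 stood apart from both others in more genes than replicates 1 and 2 did, mostly on the low side. Among protein-coding genes with a mean of at least 5 TPM, replicate 3 stood more than 2-fold below both others in 123 (1.49%) and more than 2-fold above both in 30 (0.365%). Replicate 1 stood above both others in 22 (0.267%) and below in 24 (0.292%), and replicate 2 above in 42 (0.51%) and below in 39 (0.474%).

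**Figure D4:**
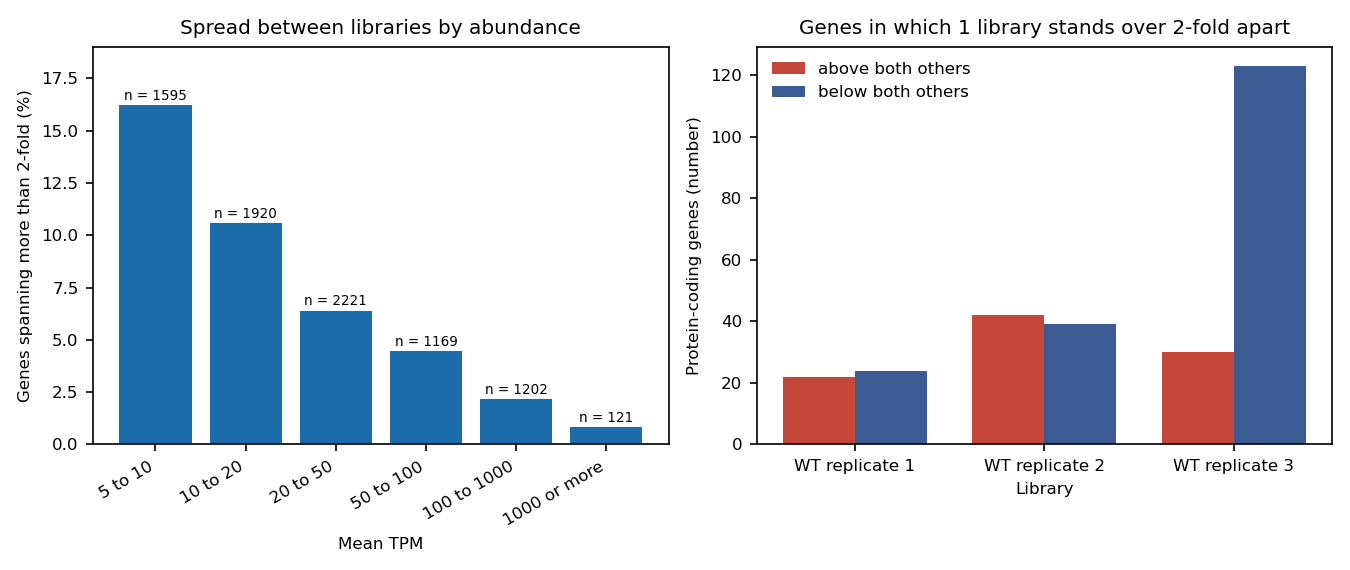
Share of protein-coding genes whose 3 WT libraries span more than 2-fold on the log2(TPM + 1) scale, by mean TPM with the number of genes above each bar (left), and number of protein-coding genes with a mean of at least 5 TPM in which 1 library stands more than 2-fold above or below both others (right). The share falls from 16.2% at 5 to 10 TPM to 0.826% at 1000 TPM or more, and replicate 3 is low in 123 genes.

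The genes in which replicate 1 stood farthest above both others were Gm5616, the histone gene Hist1h2ai, Gm21887, the neutrophil alarmin S100a9, Pdss2 and Ccdc137. Gm5616 and Hist1h2ai stood at 26.1 and 23.4 TPM in replicate 1 and were listed at 0 in the others. S100a9 stood at 37.9, 10.7 and 10.8 TPM. The sum of 11 neutrophil markers was 107, 55 and 86.7 TPM, but it includes S100a9 and is no separate support. Of the 4 markers with a mean of at least 5 TPM, 2 were highest in replicate 1 and 2 in replicate 3. S100a8, which pairs with S100a9, stood at 26.1, 15.6 and 32.9 TPM and was highest in replicate 3. Of the 11 neutrophil markers, 5 reached 1 TPM in every library, near the share of 44% of all protein-coding genes. At 0 in all 3 were 3 (Ly6g, Camp and Ngp), against 40.2% of all protein-coding genes. Csf3r stood at 26, 17.2 and 20.3 TPM and Mmp8 at 12.9, 10 and 14.9 TPM. Replicate 1 stood farthest below in mt-Co3, Gm20721, Gm7334, the translation repressor Eif4ebp3 at 2.22, 20.6 and 24.2 TPM, albumin (Alb) at 0.27, 9.57 and 6.2 TPM and Ugt1a9, which shares exons with other Ugt1a genes.

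Replicate 2 stood farthest above in Lsm7, an RNA-processing factor, which was listed at 0, 64.2 and 0 TPM, and in Gm3625, Gm20458, Gm14399, the DNA damage kinase Atm and Pemt. Atm stood at 1, 13.8 and 1.66 TPM and Pemt, which makes phosphatidylcholine, at 0, 13.5 and 2.1 TPM. It stood farthest below in Gm10146, Btg3, Gm42420, Fyb, Timm23 and Gm10134. Timm23, part of the mitochondrial import channel, stood at 124, 14.6 and 113 TPM, and the antiproliferative Btg3 at 14.2, 0 and 9.86 TPM. The adaptor gene Fyb stood at 12.1, 0 and 8.29 TPM. It overlaps the transcribed pseudogene Gm7666 on the same strand, which alone stood at 59, 63.9 and 42 TPM. The sum of both was 71.1, 63.93 and 50.29 TPM, a span below 2-fold. Since Gm7666 gave most of that sum, the sum cannot show how Fyb varied. Gm7666 was picked with its values in view, and how reads were divided between the overlapping features was not tested.

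Replicate 3 stood farthest above in Lars2, Gm10800, Ube2t, Zfp935, Spopl and Scgb3a2. Lars2, the mitochondrial leucyl-tRNA synthetase (chromosome 9, 123366927 to 123462666), stood at 77.8, 108 and 993 TPM, the ubiquitin-conjugating enzyme Ube2t at 2.56, 4.37 and 18.8 TPM and Spopl at 9.27, 9.03 and 28.6 TPM. Scgb3a2, a secretoglobin of airway club cells, stood at 5.02, 4.17 and 16.3 TPM. It stood farthest below in Gm10197, Gm9830, 1700047I17Rik2, Apoo-ps, AC151602.2 and l7Rn6, all listed at 0 in replicate 3 and between 13.4 and 59.8 TPM in the others.

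The features of ribosomal RNA moved with Lars2. Rn18s-rs5, an 18S ribosomal RNA copy on chromosome 17, stood at 730.01, 1226 and 15441 TPM. The mitochondrial ribosomal RNAs mt-Rnr1 and mt-Rnr2 stood at 549, 739 and 2693 TPM and at 1419, 1833 and 2909 TPM. AY036118, which overlaps Rn18s-rs5 on the same strand, stood at 252, 435 and 1154 TPM and the microRNA feature Mir6236 at 148, 255 and 1432 TPM. Apart from Rn18s-rs5 and Lars2 these were picked with their values in view, and in all of them replicate 3 was highest. How far poly(A) selection removed ribosomal RNA from each library was not tested.

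Base composition and length also moved with the libraries. Genes were divided into 5 classes of equal size by the GC content of their longest transcript, a split chosen after seeing the data, and likewise by exon length. In the class richest in GC, the median deviation from the 3-library mean of log2(TPM + 1) was 0.13 in replicate 1, 0.07 in replicate 2 and -0.18 in replicate 3. In the class poorest in GC it was -0.01, -0.07 and 0.08. Of the 121 genes low in replicate 3 with a known GC content, 77 lay in the richest class, and the median GC content of the low genes was 56.5% against 49.4% over all protein-coding genes tested. By exon length, the class of longest genes deviated by -0.02, -0.09 and 0.10 and that of shortest genes by 0.07, 0.02 and -0.07. Among 32 list members whose libraries spanned more than 2-fold, 14 were lowest in replicate 3. Their transcripts ran from 38.4% GC in Msr1 to 62.6% in Junb, with a median of 55.8%, and 8 of the 14 lay in the richest class. The 12 lowest in replicate 2 had a median of 46.8% and the 6 lowest in replicate 1 one of 48.8%. The part of GC content and length in these values was not tested.

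Markers of other cells were low but present. Of 113 such markers, 29 reached 1 TPM in every library, against 44% of all protein-coding genes. Listed at 0 in all 3 were 29, against 40.2% of all protein-coding genes. The summed level of the 113 was 652, 525 and 668 TPM. Replicate 3 held the highest value for 41 of the markers, replicate 1 for 24 and replicate 2 for 19. How often each library was highest over all genes was not computed. Most of these markers averaged under 1 TPM, so the counts say little about the libraries. The most abundant were Scgb1a1, the club cell secretoglobin, at 156, 105 and 186 TPM and Cd24a, listed for dendritic cells but also made by other cells, at 104, 92.5 and 107 TPM. Lyz1, listed for type 2 cells, stood at 76.9, 57.4 and 43.2 TPM and Napsa, a protease of type 2 cells, at 43.6, 59.1 and 55 TPM. The club and ciliated cell list summed to 168, 113 and 217 TPM, the T and NK cell list to 3.6, 4.13 and 9.99 TPM and the erythroid and platelet list to 20.5, 11 and 24 TPM. The 10 endothelial markers summed to 13.5, 12.9 and 13.3 TPM, nearly all of it from the receptor gene Calcrl, with 5 at 0 in every library.

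The eosinophil, basophil and mast cell list was at 0 in every library for 9 of 10 markers, and Tpsb2 was listed at 0.12 TPM in replicate 2. SiglecF is also carried by eosinophils, and their defining genes Prg2, Epx and Ccr3 were at 0 throughout. The immunoglobulin gene Igkc stood at 5.8, 4.59 and 15.1 TPM, and Pdpn and Ager, markers of type 1 cells, at 10.3, 17.4 and 4.69 TPM and at 5.65, 7.26 and 2.51 TPM, with replicate 2 highest. Batf3, a dendritic cell factor, stood at 18.1, 22.3 and 4.2 TPM, with replicate 3 lowest, and the dendritic cell genes Flt3, Siglech and Itgae were at 0 in all 3.

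**Figure D5:**
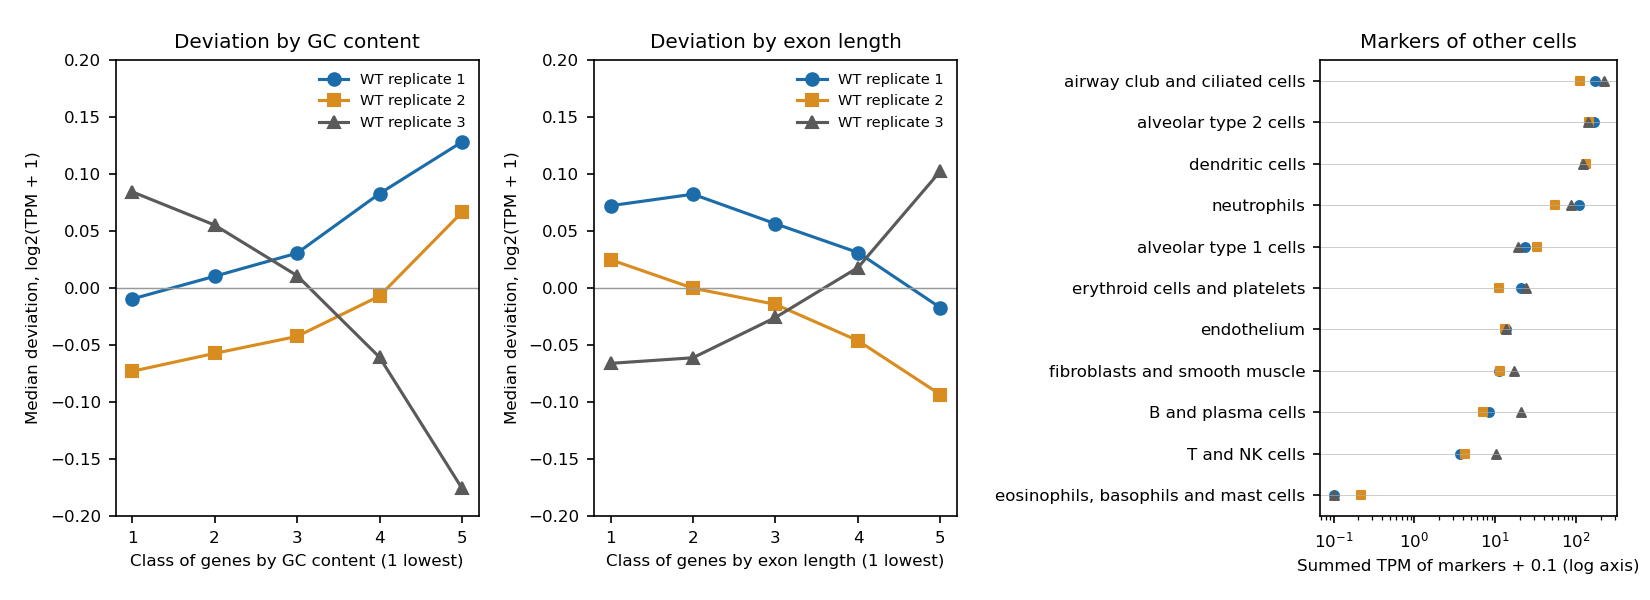
Median deviation of each WT library from the 3-library mean of log2(TPM + 1), by class of genes ranked by GC content (left) and by exon length (middle), and summed TPM of the markers of 11 other cell types, with 0.1 added, on a log axis (right). Colours and symbols are the same in all panels, and replicate 3 runs against the others, from 0.08 in the class poorest in GC to -0.18 in the richest.

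Some mitochondrial genes with a nuclear copy read unevenly between libraries. The mouse nuclear genome carries a stretch of mitochondrial sequence on chromosome 1, annotated as pseudogenes, and a read that lies within an identical stretch cannot be assigned to either place. The first 60 bases of mt-Co3, a cytochrome oxidase subunit (mitochondrial genome, 8607 to 9390), and of its copy Gm28437 (chromosome 1, 24613189 to 24613971, minus strand) are shown from the GRCm38 transcripts as an example of such an identical stretch.
mt-Co3: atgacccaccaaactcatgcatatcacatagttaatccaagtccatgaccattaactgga
Gm28437: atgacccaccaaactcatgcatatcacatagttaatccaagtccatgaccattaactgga
Over their whole aligned length 783 bases were identical and none differed. The values of mt-Co3 were 137, 3738 and 2520.5 TPM, with replicate 1 far below the others, and those of Gm28437 were 11522, 9083 and 11330 TPM. Their sum was even, at 11659, 12822 and 13851 TPM, and its SD of log2(TPM + 1) was 0.12 against 2.60 for mt-Co3 alone. The sum of mt-Co3 and mt-Atp6, its overlapping neighbour in the mitochondrial genome, was even too, at 10395, 10505 and 11322 TPM, with a log2 range of 0.12 against 0.25 for the sum with the copy. Whether reads moved between these features was not tested.

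For mt-Atp6, a subunit of ATP synthase, the SD was 0.30 alone and 0.13 in the sum with its copy. Its values of 10258, 6766 and 8801 TPM and those of its identical copy Gm10925, 10952, 17751 and 16147 TPM, summed to 21210, 24518 and 24948 TPM. The pair of mt-Nd3, a subunit of complex I, and Gm28438 differed by 1 base, in capitals below within a window of 33 bases.
mt-Nd3: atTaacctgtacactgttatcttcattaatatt
Gm28438: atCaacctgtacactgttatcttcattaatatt
Here the values were 2122, 1984 and 2829 TPM and 719, 922 and 535 TPM. Other pairs did not become more even by much. For mt-Co1 and Gm29216, identical over 492 aligned bases, the values were 13748, 17476 and 16286 TPM and 5058, 5588 and 5937 TPM, and the SD of log2(TPM + 1) was 0.18 for mt-Co1 alone and 0.16 for the sum. The gene mt-Co2 stood at 13549.6, 16030.1 and 16069 TPM and its copy Gm28661, identical over 681 aligned bases, was listed at 0 in all 3. With the 5 chromosome 1 copies added, the mitochondrial share was 11.7% ± 1.21 (SD, n = 3) instead of 8.56%. The pairs and sums were chosen after the values were seen.

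Some short features inside abundant genes also read high. Gm22133, of 109 bases, lies within Ftl1 on the same strand and stood at 8286, 11563 and 6096 TPM. Gm26377, of 108 bases, lies within Eef1a1 on the same strand and stood at 4671, 7134 and 7498 TPM. They ranked 9 and 14, and their values are uncertain because they share all their bases with the gene around them. Of the 331 genes that the naming rule or these checks selected, 63 overlap another gene on the same strand in the annotation used here.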

How the data were processed

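Per the labels' protocols, RNA of the sorted cells was selected for poly(A) tails, and NEBNext directional kits gave libraries that were sequenced single-end on a NextSeq 500. RSEM 1.3.1, STAR 2.7.0d and cutadapt 2.3 are named in the submitters' processing notes, with the build mm10. The annotation release and strand setting behind the table were not given in the sources used here. The authors deposited TPM, to 2 decimals, for 47643 genes, and only the 3 WT columns were used. Columns that match no sample numbered 0. TPM gives shares of 1 library, so a rise in a very abundant gene lowers the rest.

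From these values the mean, SD, rank, SD of log2(TPM + 1) and range of log2(TPM + 1) over the 3 libraries were computed with Python 3.11.15, pandas 2.3.3 and NumPy 2.4.6. A gene counted as expressed at 1 TPM, and as spanning more than 2-fold where its log2 range exceeded 1 with a mean of at least 5 TPM. Of these steps, only the SD, the range and the calls of a library standing apart were tested on simulated data. Coordinates, exon lengths, GC content and overlaps came from GENCODE M21 (GRCm38), in which 47224 of the 47643 gene IDs matched, promoter sequences from RefSeq on GRCm38.p6, and alignments from Biopython 1.88.

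There were 24 lists of functional genes and 11 of markers of other cells, with 605 genes, of which 58 stood on more than 1 list. The gene lists and the members were chosen with earlier results of these data known. Genes were named by a rule: the 30 most abundant after leaving out pseudogenes and predicted models, with the 10 most abundant nuclear ones outside ribosomal, ferritin and mitochondrial genes; of each list up to 6 most abundant members, those at 0 in every library and those spanning more than 2-fold; for each library the 6 protein-coding genes farthest above and the 6 farthest below both others; the 15 steadiest with a mean of at least 100 TPM; and the sorting markers, given markers, Siah1a, Siah2 and Lyz2. Some genes that the rule names are not reported here. Genes outside it are described as picked with their values in view. Alternatives were other thresholds, pseudocounts of 0.1 and 5, median-of-ratios scaling, rescaling without mitochondrial or non-coding genes, and leaving out each library.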

Additional observations from a re-analysis of the deposited data

How the results depend on the processing

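Under every alternative tried the number of genes expressed in WT stayed within 1.5 times its value, from 7904 at 5 TPM to 11123 when 2 of 3 libraries sufficed. The share held by the 100 most abundant genes was 35.9% with mitochondrially encoded genes removed, and with the 5 chromosome 1 copies, added after seeing the data, the mitochondrial share was 11.7%. The count of genes spanning more than 2-fold was 521 with a pseudocount of 5, 2139 at a mean of at least 1 TPM, 301 at a mean of at least 20 TPM and 3211 with no filter on low values. The median SD was 0.19 with a pseudocount of 5, 0.26 at a mean of at least 1 TPM, 0.19 at a mean of at least 20 TPM and 0 with no filter, where most genes are at 0. Leaving out 1 library in turn, which leaves 2 to span, gave counts of 393 to 569 and a median SD of 0.16 to 0.21, with the lowest of both without WT replicate 3 (393 and 0.16). Counts were 538 without WT replicate 2 and 569 without WT replicate 1. Of the 331 named genes, 72 spanned more than 2-fold, of which 25, 30 and 33 no longer did so without replicates 1, 2 and 3. Median-of-ratios scaling ended 1 of these spans, left the count at 935, moved the means of 2 named genes by over 1 SD and left all 35 list sums within 1 SD. Rescaling to protein-coding genes, which multiplies the remaining genes of a library by 1 factor, moved 106 of 315 named means and 27 of 35 list sums by over 1 SD. Removing mitochondrially encoded genes, which does the same, moved 71 of 317 named means and 22 of 35 list sums. With median-of-ratios scaling replicate 3 was low in 124 genes, and with a pseudocount of 5 in 63, settings added after seeing the data. At that pseudocount the other counts of displaced genes were 6 and 8 for replicate 1, 16 and 8 for replicate 2 and 9 above for replicate 3. No paired analysis was possible because the libraries form a single group and no result comes from a test. Depth is unknown in TPM, so the error of low values cannot be given.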

Other observations

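The core circadian clock, a loop of activators and repressors that runs in most cells, was not described above. Of 17 clock genes, 12 reached 1 TPM in every library, against 44% of all protein-coding genes. Their median was 5.92 TPM and their sums were 319, 335 and 363 TPM. Besides Bhlhe40 and Bhlhe41, which repress clock targets, the repressor Per1 stood at 39.3, 46.6 and 30.2 TPM, Cry1 at 19.4, 14.8 and 15.9 TPM and Per2 at 10.3, 7.31 and 8.55 TPM, and the activator Clock stood at 7.27, 6.51 and 13.8 TPM. The output factor Hlf was listed at 0 in all 3. The repressor Nr1d2 (REV-ERB beta) stood at 4.42, 10.4 and 8.6 TPM and was the 1 of 10 members with a mean of at least 5 TPM that spanned more than 2-fold. The labels give no time of day for the sampling.

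Stromal transcripts were near the lower end of the table. The 11 markers of fibroblasts and smooth muscle summed to 10.9, 11.3 and 17 TPM, led by the collagens Col3a1 at 2.83, 1.59 and 7.47 TPM and Col1a1 at 0.48, 5.53 and 1.38 TPM and the smooth muscle genes Tagln and Acta2 at 2.98, 1.16 and 2.63 TPM and at 1.79, 1.71 and 2.27 TPM. The smooth muscle myosin Myh11 was listed at 0 in all 3. Gadd45b, a stress-inducible gene on none of the lists and picked with its values in view, stood at 21, 58.1 and 18.1 TPM, with replicate 2 highest, as it was for Cxcl1, Nr4a2 and Nfkbiz.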
